A study of Mus musculus with 9 samples.

Results

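Itgae and Ccr9 encode surface proteins of gut-homing lymphocytes, and both were low in 1 of 3 subsets of mouse γδ T cells. Members were taken as the array rows whose only gene symbol is Itgae or Ccr9. Each gene had 1 such row, so the members are 2 of 22180 genes with a row of 1 symbol. They were chosen by their deposited log2 values, which were low in Type-1 cells. Their differences from Type-1 cells are therefore a description, without a test.

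Total RNA of γδ T cells purified from animals of strain C57BL/6 was measured on 9 Affymetrix Mouse Gene 2.0 ST arrays, 3 for each subset. Intraepithelial lymphocytes (IELs) came from the intestinal epithelium, and Naive-like and Type-1 cells from peripheral lymph nodes. No genetic change or treatment is named for any group, and no age. The labels mark arrays as biological replicates but do not say how many animals gave each sample. P-values therefore measure only the spread between these samples, which may be technical. The antibodies listed for staining include none against CD103, the product of Itgae, or against CCR9. Subset and tissue cannot be told apart in comparisons with IELs, whereas Type-1 and Naive-like cells share a tissue. In such bulk samples, fewer cells with a transcript and less of it per cell cannot be told apart.

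The αE chain encoded by Itgae, CD103, pairs with the β7 chain to form an integrin. This integrin binds E-cadherin on epithelial cells and is known for holding lymphocytes in the gut epithelium. CCR9 is the receptor for the chemokine CCL25, which small intestinal epithelium and thymus produce, and it directs lymphocytes to the small intestine. In T cells, transforming growth factor β (TGF-β) is known to induce Itgae and retinoic acid is known to induce Ccr9.

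Levels are log2 values as the authors normalized them, and a difference of 1 is 2-fold. Itgae (Entrez 16407) had levels of 10.76, 11.40 and 11.38 in IELs, 8.26, 8.65 and 9.10 in Naive-like cells, and 6.05, 5.85 and 6.78 in Type-1 cells. The 3 subsets formed separate steps without overlap, with IELs at the top and Type-1 cells at the bottom. Means were 11.18 ± 0.36 (SD, n = 3), 8.67 ± 0.42 and 6.23 ± 0.49 in that order. Adjacent steps were alike in size, at 2.51 between IELs and Naive-like cells and 2.44 between Naive-like and Type-1 cells.

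Ccr9 (Entrez 12769) had levels of 6.99, 7.20 and 7.39 in IELs, 7.26, 6.95 and 7.03 in Naive-like cells, and 4.64, 4.95 and 4.74 in Type-1 cells. IEL and Naive-like arrays were interleaved, and the Type-1 arrays lay at least 2.00 below any of them. Means were 7.19 ± 0.20 (SD, n = 3), 7.08 ± 0.16 and 4.78 ± 0.16. The Type-1 mean was 0.26 above 4.52, the median of all genes' mean levels, whereas that of Itgae was 1.71 above it. The table carries no detection calls, so whether Ccr9 RNA was present in Type-1 cells was not tested.

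**Figure D1:**
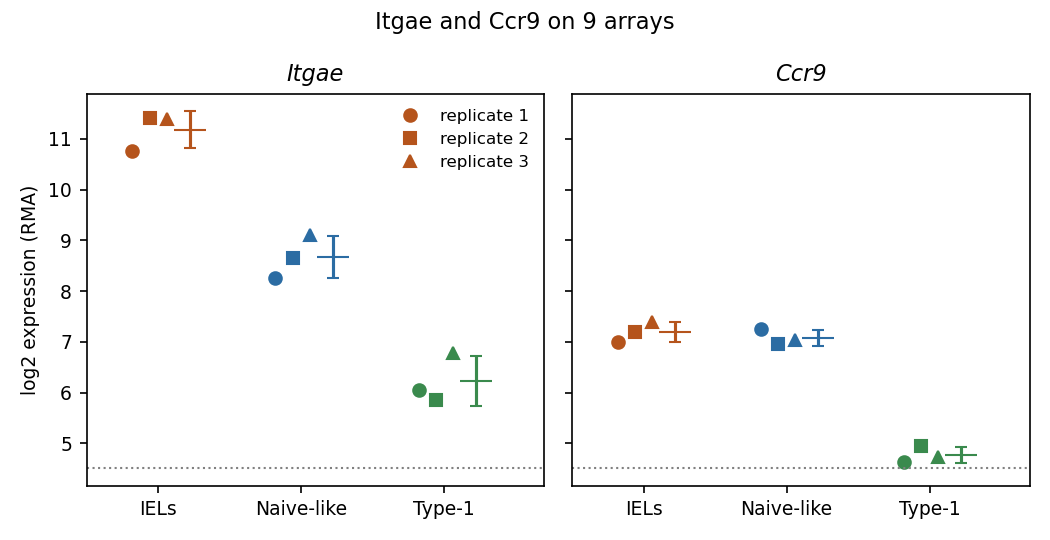
Log2 expression of Itgae and Ccr9 on each of the 9 arrays, with symbols for the replicate number, a bar with whiskers for the mean ± SD of 3 arrays, and a dotted line at the median of all genes' means (4.52). Itgae falls in steps from 11.18 in IELs to 8.67 and 6.23, while Ccr9 is at 7.19 and 7.08 in IELs and Naive-like cells and at 4.78 in Type-1 cells.

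The window before the annotated start of Ccr9 is shown as the proximal regulatory stretch of a gene of the pair that was low in Type-1 cells. It holds the 250 bases upstream of the start in RefSeq's GRCm38.p6, chr9:123766961-123767210 on the plus strand, with matches to CANNTG (the E-box, bound by E proteins) and to GGTGTG (a T-box core) in capitals:
Ccr9: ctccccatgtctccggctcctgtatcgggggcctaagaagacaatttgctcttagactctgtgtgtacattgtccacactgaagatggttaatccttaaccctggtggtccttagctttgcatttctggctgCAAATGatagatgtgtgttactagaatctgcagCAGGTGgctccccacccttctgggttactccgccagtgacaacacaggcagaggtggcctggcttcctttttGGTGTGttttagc
Both strands were searched. E-boxes began 118 and 85 bases before the start, and the T-box core 13 bases before it; none of these matches overlapped. A match to CANNTG is in 66.2% and one to GGTGTG in 16.2% of the 27025 promoter windows of this length in the table. No match was found to TGTGGT (RUNX core), TGGGAA (RBPJ core), AGGTCA (retinoid receptor half-site), CAGAC (SMAD element) or GATAA (GATA core). In that order, 14.2%, 21.6%, 14%, 42.4% and 23.1% of windows hold them. GC content of the window was 50.4%, against a median of 52%.

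The pair was chosen for low values in Type-1 cells, not for a difference between IELs and Naive-like cells. That comparison shares its arrays with the choice, and earlier results were known. Its p-values are therefore not independent of the choice. IELs against Naive-like cells separated these genes. Itgae was 5.71-fold higher in IELs, a log2 difference of 2.51 ± 0.30 (SE; 95% interval 1.86 to 3.16; limma adjusted p = 2.3e-04 over all genes; higher in 3 of 3 arrays than in any Naive-like array). Of all genes, 5.19% passed in this comparison, 3.57% as higher and 1.62% as lower in IELs, and in 10.9% the IEL arrays lay wholly above the Naive-like arrays. Ccr9 did not pass, at 0.11 ± 0.19 (95% interval -0.31 to 0.54; limma adjusted p = 0.91).

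Within an array, the log2 ratio of the Itgae value to the Ccr9 value was 3.77, 4.20 and 3.99 in IELs, 1.00, 1.70 and 2.06 in Naive-like cells, and 1.41, 0.89 and 2.05 in Type-1 cells. The lymph node subsets overlapped on this ratio, and every IEL array lay above both. IELs exceeded Naive-like cells by 2.40 on this ratio (exact two-sided permutation test, p = 0.10, the smallest that 3 against 3 arrays allow).

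Against Type-1 cells, Itgae was higher by 4.95 ± 0.30 in IELs, which is 31-fold, and by 2.44 ± 0.30 in Naive-like cells, which is 5.43-fold. Ccr9 was higher by 2.42 ± 0.19 in IELs (5.33-fold) and by 2.30 ± 0.19 in Naive-like cells (4.94-fold). These comparisons share the Type-1 arrays. In both, the arrays of the subsets did not overlap for either gene, as was so in 10.0% of all genes for IELs above Type-1 cells and in 5.11% for Type-1 below Naive-like cells. By the limma test 3.73% of all genes were above their Type-1 level in IELs, and 0.0721% were below their Naive-like level in Type-1 cells.

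Replicate 3 of every subset carries a date code in its description that the other arrays lack. For Itgae that array was the highest of its subset in Naive-like cells, 0.43 above the mean, and in Type-1 cells, 0.56 above it. Over the 6 arrays without the code, the Itgae difference of IELs from Naive-like cells was 2.63, and between the date-coded arrays it was 2.28. For Ccr9 the same values were -0.01 and 0.36.

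No partner or ligand of the pair passed for Type-1 against Naive-like cells. Itgb7, which encodes the β7 chain that αE needs to reach the cell surface, had levels of 7.75, 8.11 and 7.98 in IELs, 8.04, 8.17 and 8.47 in Naive-like cells, and 7.85, 7.77 and 8.21 in Type-1 cells. The subsets overlapped throughout. Its differences were -0.28 ± 0.21 for IELs against Naive-like cells (95% interval -0.73 to 0.17), -0.29 ± 0.21 for Type-1 against Naive-like cells (-0.74 to 0.16) and 0.01 ± 0.21 for IELs against Type-1 cells (-0.44 to 0.46). None of these intervals reached the size of either Itgae step.

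Itga4, the other α chain that pairs with β7, ran opposite to Itgae in IELs. Its levels were 7.56, 8.30 and 9.24 in IELs, 9.94, 10.03 and 10.32 in Naive-like cells, and 9.45, 9.69 and 10.29 in Type-1 cells. All IEL arrays lay below all lymph node arrays. The difference from Naive-like cells was -1.73 ± 0.36 (limma adjusted p = 0.013) and that from Type-1 cells -1.44 ± 0.36 (limma adjusted p = 0.040). The first call was lost without IEL replicate 2 (limma adjusted p = 0.058) or Naive-like replicate 3 (0.066). The second was lost more widely, with a limma adjusted p of 0.056 to 0.13 without IEL replicate 1 or 2, any Naive-like array, or Type-1 replicate 2 or 3, with array medians subtracted or with the 2 subsets alone. Itgb1, the β1 chain that also pairs with α4, did not pass in any comparison, with means of 5.22 ± 0.24, 5.15 ± 0.23 and 6.34 ± 0.77 (SD, n = 3) in IELs, Naive-like and Type-1 cells. Its arrays were highest in Type-1 cells without overlap, and both differences from Type-1 cells passed when Type-1 replicate 1 was left out. That from IELs also passed with array weights, cyclic loess or a new quantile normalization.

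Of the ligands, Cdh1, which encodes the E-cadherin that CD103 binds, had levels of 7.71, 9.28 and 8.72 in IELs against 4.54 to 5.37 in Naive-like and 4.75 to 5.47 in Type-1 cells. It was higher in IELs by 3.71 ± 0.37 than in Naive-like cells (limma adjusted p = 5.5e-05) and by 3.46 ± 0.37 than in Type-1 cells (limma adjusted p = 1.1e-04). Of 15 epithelial markers, a list that holds Cdh1 itself, 10 rose in IELs against Naive-like cells and none fell. Over the arrays without the date code the calls of Krt19, Krt20, Elf3 and Tspan8 were lost (limma adjusted p of 0.065 to 0.22). That of Krt18 was lost when the mean of its array rows was used (0.62, limma adjusted p = 0.20). The summed linear level of the list, Cdh1 included, was 1090 to 1846 in IELs, 302 to 340 in Naive-like and 336 to 365 in Type-1 cells. The part of these markers in the Cdh1 and Itgae differences of IELs was not tested. Between Type-1 and Naive-like cells, where Itgae differed by -2.44, none of the 15 passed, and none did so at an unadjusted limma p under 0.05. Ccl25, the CCR9 ligand, did not pass in any comparison, with means of 6.67 ± 0.18, 6.53 ± 0.37 and 6.07 ± 0.08 (SD, n = 3) in IELs, Naive-like and Type-1 cells.

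Madcam1 and Vcam1, ligands of the α4 integrins, and Ackr4, a scavenger receptor for CCL25, did not pass either. Their differences ran from -0.38 to 0.21 over the 3 comparisons. Of the 8 partners and ligands, 2 had an unadjusted limma p under 0.05 for IELs against Naive-like and 4 against Type-1 cells. Of the 8 genes in this list 1 rose and 1 fell in each comparison with IELs, beside 5.19% of all genes passing when IELs were set against Naive-like cells and 5.14% (3.73% higher, 1.41% lower) when set against Type-1 cells. None passed for Type-1 against Naive-like cells, with 1 at an unadjusted limma p under 0.05, where 0.284% of all genes passed, 0.212% as higher and 0.0721% as lower.

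**Figure D2:**
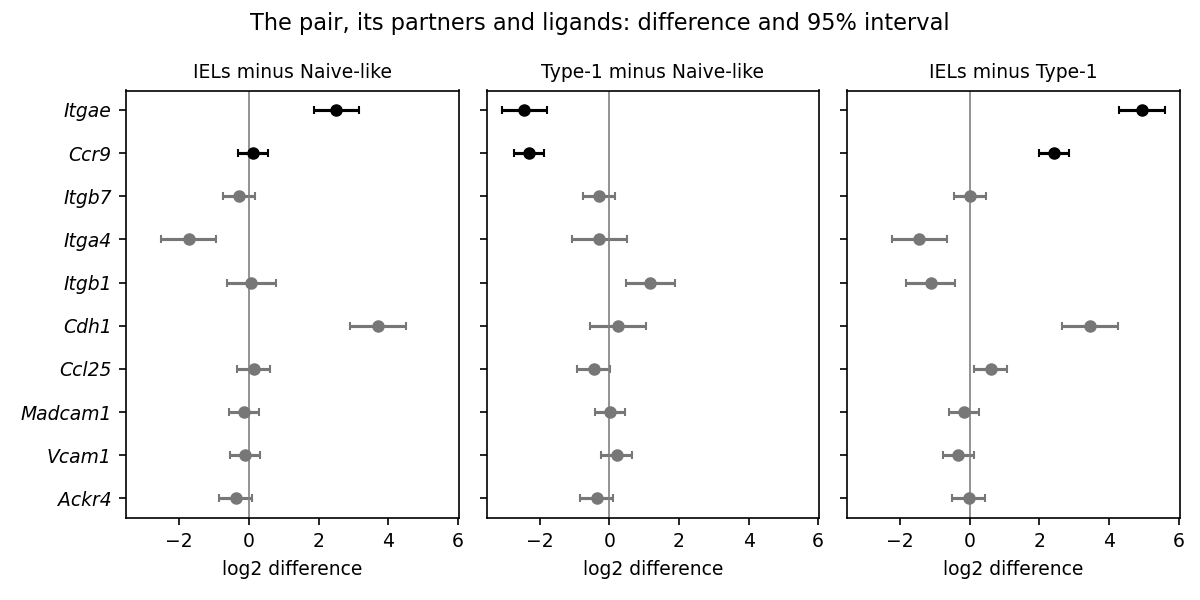
Log2 difference with its 95% interval from limma for Itgae, Ccr9 (black) and 8 genes for their partners and ligands (grey), 1 panel per comparison, n = 3 arrays per subset. Itgb7 stays within 0.29 of 0 in every panel while Itgae lies at 2.51, -2.44 and 4.95; Cdh1 is higher and Itga4 lower in IELs.

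Other receptors of gut and mucosal homing differed in IELs. The shares of all genes just given are the background for each list count that follows. Of 10 measured, 3 rose and 1 fell against Naive-like cells, and 2 rose and 1 fell against Type-1 cells. Itga1, the collagen-binding α1 chain, was higher in IELs by 6.18 ± 0.33 and 4.90 ± 0.33, and Gpr55, a lipid receptor, by 3.10 ± 0.29 and 3.04 ± 0.29. Gpr18, a receptor known from intraepithelial γδ cells, was higher by 1.45 ± 0.30 than in Naive-like cells, a call lost without IEL replicate 2 (limma adjusted p = 0.066) or 3 (0.061). The other call was Itga4. None of the 10 passed for Type-1 against Naive-like cells, with 3 at an unadjusted limma p under 0.05. Thus neither Cxcr6, the CXCL16 receptor (difference 0.41 ± 0.23), nor Itgb7 fell with the pair there.

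Of 10 genes for lymph node and skin homing, 5 fell in IELs in each comparison with IELs, and 1 rose against Naive-like cells. S1pr1, the egress receptor, differed from Naive-like and Type-1 cells by -4.83 ± 0.33 and -4.13 ± 0.33, and Ccr7, the lymph node homing receptor, by -2.94 ± 0.29 and -2.22 ± 0.29. Klf2, a transcription factor that drives S1pr1, differed by -1.89 ± 0.32 and -1.58 ± 0.32, and Itgal, the α chain of LFA-1, by -1.85 ± 0.33 and -2.10 ± 0.33. Between the lymph node subsets 4 of the 10 had an unadjusted limma p under 0.05. Cxcr3, a receptor of inflammatory chemokines, was the 1 gene of this list to pass for Type-1 against Naive-like cells. Its levels were 8.53, 8.56 and 8.65 in Type-1 cells and 6.61, 6.64 and 6.69 in Naive-like cells, with 8.05, 7.96 and 7.68 in IELs. It rose by 1.93 ± 0.18 in Type-1 cells (limma adjusted p = 2.8e-04) and by 1.25 ± 0.18 in IELs against Naive-like cells (limma adjusted p = 9.8e-04). Its mean was thus highest in the subset in which the gut-homing pair was lowest.

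Of 24 TGF-β pathway genes, 2 rose and 1 fell in IELs against Naive-like cells, and 5 rose and 1 fell against Type-1 cells. Tgfb3, a TGF-β ligand, had levels of 7.06, 8.23 and 8.49 in IELs, 4.68, 5.20 and 5.62 in Naive-like cells, and 3.95, 3.87 and 4.70 in Type-1 cells. The IEL arrays lay above all others, and Naive-like replicate 1 overlapped with Type-1 replicate 3. Tgfb3 rose in IELs by 2.76 ± 0.37 and 3.75 ± 0.37. Itgav, an α chain of integrins that activate latent TGF-β, was higher by 1.43 ± 0.30 and 1.77 ± 0.30. Its call against Naive-like cells was lost without IEL replicate 2 or 3 or Naive-like replicate 1 (limma adjusted p of 0.058, 0.071 and 0.065).

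Pmepa1, a feedback gene that TGF-β induces, was higher in IELs than in Type-1 cells by 1.67 ± 0.27 (limma adjusted p = 0.0024), with levels of 6.63, 7.24 and 7.43 in IELs, 6.31, 6.98 and 6.46 in Naive-like and 5.64, 5.07 and 5.57 in Type-1 cells. Type-1 arrays were below all others, yet Type-1 against Naive-like cells did not pass (-1.16 ± 0.27, limma adjusted p = 0.17). Skil, another feedback gene, was higher in IELs than in Type-1 cells by 1.59 ± 0.34, a call lost without IEL replicate 2 or 3 or Type-1 replicate 1 or 2 (limma adjusted p of 0.064 to 0.086). Smad3, a TGF-β signal transducer, went the other way from Itgae. It had means of 4.17 ± 0.17 in IELs, 5.11 ± 0.14 in Naive-like and 5.76 ± 0.28 (SD, n = 3) in Type-1 cells, and fell in IELs against Type-1 cells, with a difference of -1.59 ± 0.20 (limma adjusted p = 4.7e-04). Its difference from Naive-like cells, -0.93 ± 0.20, passed too but not without IEL replicate 2 or 3 or Naive-like replicate 1 or 3 (limma adjusted p of 0.056 to 0.089). The receptor genes Tgfbr1 and Tgfbr2 did not pass in any comparison, with differences from -0.46 to 0.16; they were picked after their values were seen. For Type-1 against Naive-like cells none of the 24 passed, with 5 at an unadjusted limma p under 0.05.

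None of 20 retinoic acid pathway genes, covering receptors, binding proteins and the enzymes that make or break down the ligand, passed in any comparison. At an unadjusted limma p under 0.05 there were 6 between IELs and Naive-like cells, 5 between IELs and Type-1 cells and 0 between the lymph node subsets. For IELs against Naive-like cells the differences ran from -0.77 ± 0.22 for the receptor gene Rara (limma adjusted p = 0.074) to 0.79 ± 0.55 for the retinol dehydrogenase gene Rdh10. Rara passed as lower with array weights, cyclic loess or a new quantile normalization. For Type-1 against Naive-like cells, where Ccr9 differed by -2.30, they ran from -0.26 to 0.38.

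Among 25 transcription regulators of T-cell homing and residency, 4 rose and 6 fell in IELs against Naive-like cells, and 4 rose and 4 fell against Type-1 cells. Prdm1, which encodes the residency factor Blimp-1, rose in IELs by 3.24 ± 0.25 and 2.60 ± 0.25. Bhlhe40, another residency factor, rose as well, with means of 7.84 ± 0.74 in IELs, 4.83 ± 0.32 in Naive-like and 5.40 ± 0.30 (SD, n = 3) in Type-1 cells. Lef1 and Myb, factors of naive and immature cells, fell, with differences of -3.50 ± 0.25 and -3.30 ± 0.32 against Naive-like and of -2.62 ± 0.25 and -2.64 ± 0.32 against Type-1 cells. Runx3, a factor required for CD103 in CD8 T cells, was named after its values were seen. It had means of 8.13 ± 0.47, 7.55 ± 0.08 and 7.01 ± 0.28 (SD, n = 3) in IELs, Naive-like and Type-1 cells, the order of Itgae. It passed for IELs against Type-1 cells (1.12 ± 0.25, limma adjusted p = 0.020), but not without IEL replicate 2 or 3 or Type-1 replicate 1 (limma adjusted p of 0.076 to 0.096), nor with the 2 subsets alone (0.059).

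Between Type-1 and Naive-like cells the T-box factor genes were the only regulators of this list to pass, and both were higher in Type-1 cells. There, 9 of the 25 regulators had an unadjusted limma p under 0.05. Tbx21, which encodes T-bet, had levels of 7.66, 7.40 and 7.95 in Type-1 cells, 5.89, 5.50 and 5.78 in Naive-like cells, and 7.55, 8.64 and 8.68 in IELs. Naive-like arrays lay below all others. The rise in Type-1 cells was 1.95 ± 0.29 (limma adjusted p = 0.012; 0.068 without Naive-like replicate 2 and 0.067 without Naive-like replicate 3). Eomes had means of 7.46 ± 0.51 in Type-1, 5.95 ± 0.24 in Naive-like cells and 4.05 ± 0.26 (SD, n = 3) in IELs, an order opposite to that of Itgae. It rose in Type-1 against Naive-like cells by 1.52 ± 0.27 (limma adjusted p = 0.035) and fell in IELs against Type-1 cells, at -3.41 ± 0.27 (limma adjusted p = 1.1e-05). The first of these calls was lost without IEL replicate 2 or 3, any Naive-like array, or Type-1 replicate 1 or 3 (limma adjusted p of 0.061 to 0.20), with array medians subtracted (0.13) and with the 2 subsets alone (0.12).

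Of 24 genes for chemokine receptor signalling and integrin activation, few differed. Rasgrp2, an activator of the GTPase Rap1 that switches integrins on, fell in IELs, with differences of -2.08 ± 0.25 and -1.71 ± 0.25. Gng2, a G protein γ subunit, exceeded its Naive-like level in IELs by 0.89 ± 0.22, a call lost without any IEL array or Naive-like replicate 1 or 3 (limma adjusted p of 0.050 to 0.13), with a new quantile normalization (0.063) and with a trended, robust spread (0.052). None passed for Type-1 against Naive-like cells, with 2 at an unadjusted limma p under 0.05; the largest difference was that of Fermt3, the integrin activator kindlin-3, at -0.67 ± 0.24.

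Over all 7 lists, 119 of 129 genes had a row of 1 symbol. For IELs against Naive-like cells 12 rose and 14 fell, 21.8% of the 119 beside 5.19% of all genes, and for IELs against Type-1 cells 12 rose and 12 fell (20.2% beside 5.14%). For Type-1 against Naive-like cells 3 passed (2.52% beside 0.284%), all of them higher, namely Cxcr3, Tbx21 and Eomes. Over the arrays without the date code, list genes passing fell from 26 to 18 for IELs against Naive-like cells. They fell from 24 to 19 for IELs against Type-1 cells. Against Naive-like cells the calls of Gpr18, Itgav, Smad3, Gng2, Ccr4, Id3 and Bcl11b were lost. Against Type-1 cells those of Pmepa1, Runx3, Ccr8 and Tgif1 were lost, and Klf2 lost its call in both. Lztfl1, a neighbour of Ccr9 outside the lists, lost its call against Type-1 cells. The calls of Tbx21 and Eomes for Type-1 against Naive-like cells were lost as well (limma adjusted p of 0.27 and 0.19). The lists hold genes picked for their role in lymphocytes, with earlier results known. In the same order of IELs from Naive-like, IELs from Type-1 and Type-1 from Naive-like cells, the median difference of the 119 genes was -0.15, -0.04 and -0.07, beside -0.01, -0.03 and 0.03 over all genes.

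Genes beside the pair on the chromosome were examined by RefSeq gene order, with the nearest 5 measured genes on each side. Itgae lies on chromosome 11, and none of its 10 neighbours passed in any comparison, with none at an unadjusted limma p under 0.05 between IELs and Naive-like cells, 2 between the lymph node subsets and 1 between IELs and Type-1 cells. Haspin, a mitotic kinase gene that overlaps Itgae in RefSeq, had levels of 5.09, 4.63 and 4.56 in IELs, 4.22, 4.06 and 5.29 in Naive-like and 6.43, 5.64 and 5.06 in Type-1 cells. Its highest mean was thus in Type-1 cells, where Itgae was lowest, and its arrays overlapped. The nearest measured gene on the other side, Ncbp3, a cap-binding protein gene, had differences of -0.56 to 0.07.

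Ccr9 lies on chromosome 9 among other chemokine receptor genes, and 1 of its 10 neighbours passed in 1 comparison. Lztfl1, which encodes a regulator of ciliary protein traffic and is the nearest measured gene on one side, had levels of 6.21, 5.58 and 6.44 in IELs, 5.60, 5.90 and 6.38 in Naive-like and 4.77, 4.40 and 5.28 in Type-1 cells. All Type-1 arrays were below all others, as for Ccr9. It was higher in IELs than in Type-1 cells by 1.26 ± 0.30 (limma adjusted p = 0.029), and its difference for Type-1 against Naive-like cells did not pass (-1.14 ± 0.30, limma adjusted p = 0.27). The call was lost without IEL replicate 1 or 3 or Type-1 replicate 1 or 2 (limma adjusted p of 0.077 to 0.14), with array medians subtracted (0.062) and with the 2 subsets alone (0.050).

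On the other side of Ccr9, Fyco1, an adaptor of vesicle transport, had means of 7.36 ± 0.40, 7.49 ± 0.24 and 7.34 ± 0.18 (SD, n = 3) in IELs, Naive-like and Type-1 cells. Cxcr6 was next, at 8.54 ± 0.34, 7.88 ± 0.28 and 8.29 ± 0.13. Neither passed, and nor did the chemokine receptor genes Xcr1, Ccr1 and Ccr1l1 farther on, whose differences ran from -0.52 to 0.52. The drop of Ccr9 in Type-1 cells was thus not seen in the receptor genes beside it. No neighbour passed for IELs against Naive-like or Type-1 against Naive-like cells, with 1 at an unadjusted limma p under 0.05 in each.

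**Figure D3:**
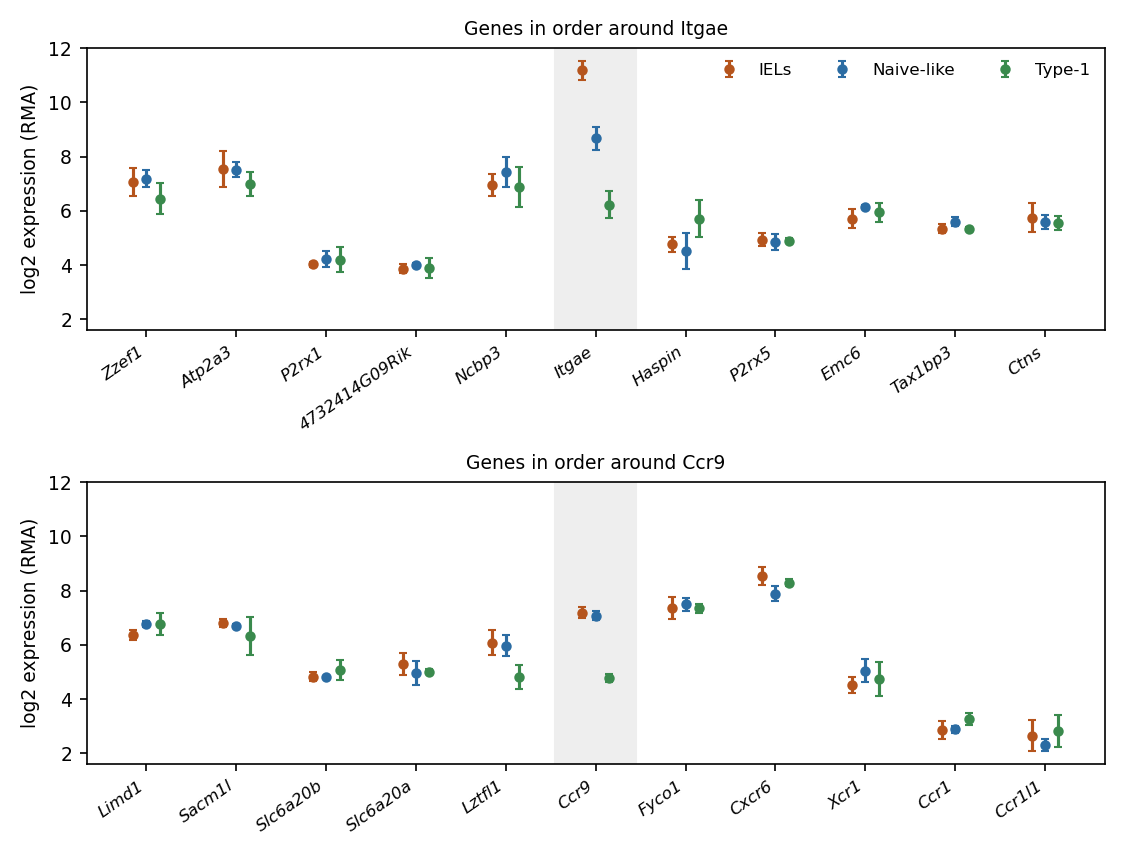
Mean log2 expression ± SD (n = 3 arrays) per subset for Itgae and Ccr9 (shaded) and the 5 nearest measured genes on each side, in chromosome order and not to scale. The neighbours show no separation like that of Itgae, and beside Ccr9 only Lztfl1 has Type-1 cells lowest without overlap between arrays, at 4.82 against 6.08 and 5.96.

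The class of genes that passed as higher than in Type-1 cells in both other subsets held 4 (0.0180% of those tested). The pair was picked for being low in Type-1 cells, so its place in this class follows from the choice and lends it no support. Trat1, which encodes an adaptor that stabilises the T-cell receptor complex, had levels of 9.95, 9.80 and 10.21 in IELs, 8.55, 8.43 and 8.50 in Naive-like and 6.90, 6.48 and 7.25 in Type-1 cells. Like Itgae it formed 3 separate steps. Its place in the class was lost over the arrays without the date code (limma adjusted p = 0.077 for Type-1 against Naive-like cells). U2af1, a splicing factor gene, had means of 6.52 ± 0.09, 6.75 ± 0.37 and 5.41 ± 0.25 (SD, n = 3), nearer to the pattern of Ccr9. Its differences were -1.34 for Type-1 against Naive-like and 1.11 for IELs against Type-1 cells. The former passed in only 8 of 20 alternatives and was lost without any single array other than IEL replicate 1 (limma adjusted p of 0.057 to 0.12), with cyclic loess (0.13) or a new quantile normalization (0.12), with the 2 subsets alone (0.12) and over the arrays without the date code (0.27). Just outside stood Tcf4 (-1.26 and 1.17), Mir340 (-2.41 and 2.53) and Aqp11 (-1.05 and 1.27), which were higher than in Type-1 cells by test in IELs only. Tcf4, an E protein gene, had means of 5.91 ± 0.29, 6.00 ± 0.31 and 4.74 ± 0.24, and Aqp11, an aquaporin gene, of 5.16 ± 0.26, 4.94 ± 0.34 and 3.89 ± 0.18.

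Likeness of pattern was measured as the root mean square difference over the 9 arrays between log2 values centred on each gene's mean. By this measure Tgfb3 was nearest to Itgae (0.66), followed by P2rx7, an ATP-gated channel (0.78), Trat1 (0.81), Tnfaip3, a brake on NF-κB (0.82), Tiparp, a target of the aryl hydrocarbon receptor (0.82), the sterol enzyme gene Cyp51 (0.88), the fatty acid desaturase gene Fads1 (0.88) and Gabarapl1, an autophagy gene (0.95). The median of all genes was 2.09. In 6 of these 8 the step from Naive-like to Type-1 cells was under 1, against 2.44 for Itgae. Trat1 and Fads1 dropped more there, with Type-1 minus Naive-like differences of -1.62 and -1.36. Naive-like and Type-1 arrays overlapped for Tgfb3, Tnfaip3 and Gabarapl1, which they did not for Itgae.

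Nearest to Ccr9 were Dusp10, a phosphatase of stress kinases (0.52), the sialyltransferase gene St3gal3 (0.52), Ern1, a sensor of unfolded proteins (0.53), Tcf4 (0.58), Pmepa1 (0.58), Aqp11 (0.60), the efflux pump gene Abcb1b (0.60) and Trat1 (0.62), beside a median of 1.17. The measure depends on the size of the changes, and a gene that barely varies lies nearer to Ccr9 than to Itgae. Trat1 was the only gene in both sets of 8. Itgae and Ccr9 were 1.23 apart, which placed Ccr9 at position 88 of the 18196 protein-coding genes ranked against Itgae but Itgae at position 12993 against Ccr9, farther away than the median gene.

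**Figure D4:**
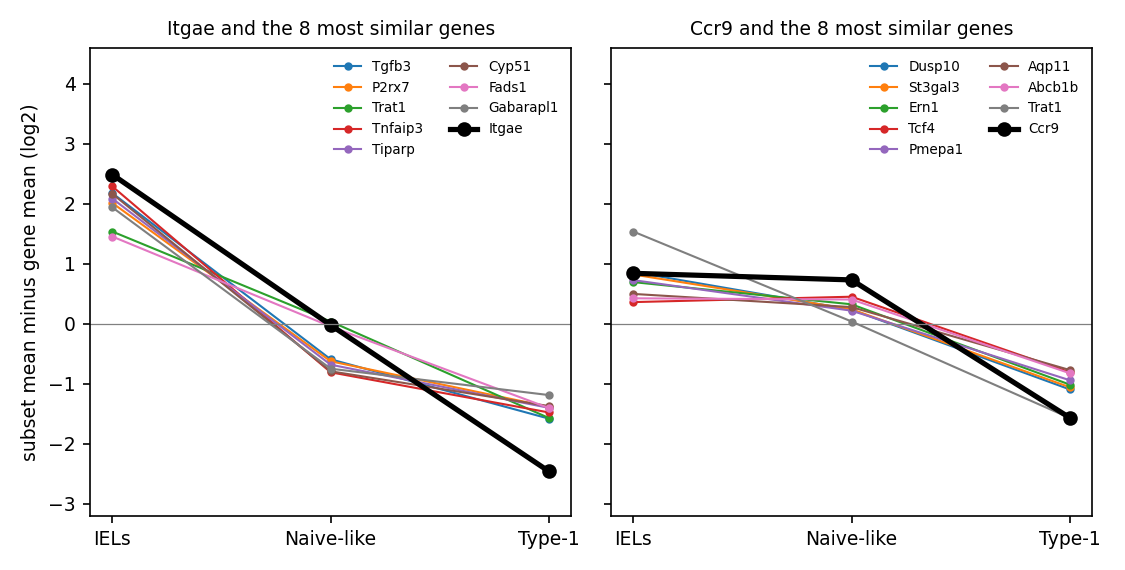
Subset means minus each gene's own mean (log2) for Itgae (left, black) and Ccr9 (right, black) with the 8 genes of most similar pattern; lines join the values of 1 gene. Itgae has steps of 2.51 and 2.44 while most genes near it drop mainly between IELs and Naive-like cells. The genes near Ccr9 share its drop from Naive-like to Type-1 cells at a smaller size. Of these, Trat1 also drops by 1.49 from IELs to Naive-like cells.

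Marker genes were compared for cells known to carry either transcript. The γδ T-cell markers Cd3g, Cd3d, Cd3e and Ptprc were at 10.06 or higher on all 9 arrays, and Zap70, a T-cell receptor kinase gene, was at 7.45 to 9.17. These are genes of T cells or leukocytes at large. The γ chain segments Trgv5 and Trgv6, the measured genes of the list that are particular to γδ cells, had low values of 2.82 to 4.95 and 3.76 to 5.73. Cd3g and Zap70 were higher in IELs than in Type-1 cells, by 0.99 ± 0.23 and 1.05 ± 0.25, with the highest limma adjusted p over the alternatives at 0.21 and 0.13. Of 8 measured markers of CD103-bearing dendritic cells none passed for Type-1 against Naive-like cells (1 at an unadjusted limma p under 0.05), and Zbtb46 and Cadm1 were below the median of all genes on every array. In IELs Itgax, which IELs themselves can carry, rose by 4.86 ± 0.29 against Naive-like and 3.94 ± 0.29 against Type-1 cells. Naaa, a lysosomal amidase gene, rose against Naive-like cells by 1.22 ± 0.29 (limma adjusted p = 0.031), a call that 14 of 20 alternatives kept and that was lost without IEL replicate 2 or 3 or Naive-like replicate 1 or 3 (0.12 to 0.15), with array medians subtracted (0.052) and over the arrays without the date code (0.35). The summed linear level of the list was 704 to 1039 in IELs, 182 to 273 in Naive-like and 227 to 323 in Type-1 cells. Its median difference in IELs was 0.12 against Naive-like and 0.17 against Type-1 cells, beside -0.01 and -0.03 over all genes. In each of these comparisons 4 of the 8 markers were higher in IELs by sign. Their part in the Itgae difference in IELs was not tested.

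Of 7 measured markers of plasmacytoid dendritic cells, which carry Ccr9, none passed for Type-1 against Naive-like cells (2 at an unadjusted limma p under 0.05). Tcf4 came nearest, at -1.26 ± 0.23 (limma adjusted p = 0.053), and passed in 7 of 20 alternatives, among them the date code as a block and cyclic loess. In IELs Klk1 rose and Bst2 fell against both lymph node subsets, and Tcf4 rose against Type-1 cells. Against Type-1 cells the Bst2 call was lost without IEL replicate 3 or Type-1 replicate 2 (limma adjusted p of 0.068 and 0.051). The Tcf4 call was lost without IEL replicate 2 or 3 (limma adjusted p of 0.057 and 0.053). Over the arrays without the date code both of these calls were lost (limma adjusted p of 0.10 and 0.074). By sign, 1 of the 7 markers was higher in Type-1 than in Naive-like cells. Their median difference there was -0.31, beside 0.03 over all genes. Siglech and Spib were below the median of all genes on every array. The summed linear level of the list was 462 to 572 in IELs, 1106 to 1126 in Naive-like and 695 to 816 in Type-1 cells, most of it from Bst2, an interferon-inducible gene. Tcf4, named above for its likeness to Ccr9, is also in this list. The part of these cells in the Ccr9 difference was not tested.

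Among mast cell markers, Kit alone passed, higher in IELs by 3.87 ± 0.52 and 4.44 ± 0.52, and the other 8 were below the median of all genes on all arrays. Of 8 B-cell and plasma cell markers none passed in any comparison (1 in each comparison with IELs and 0 between the lymph node subsets at an unadjusted limma p under 0.05), and Ms4a1, Cd79a, Pax5 and Jchain were below that median throughout. Of 6 immature thymocyte markers, Dntt fell in Type-1 against Naive-like cells, at -2.18 ± 0.37 (limma adjusted p = 0.031), beside Ccr9. That call was lost without any IEL array, Naive-like replicate 1 or 3, or Type-1 replicate 1 or 3 (limma adjusted p of 0.056 to 0.18), over the arrays without the date code (0.47), with array medians subtracted (0.057) and with the 2 subsets alone (0.14). In IELs Dntt and Arpp21 fell against Naive-like cells, in 20 and 15 of 20 alternatives. The summed level of this list was 320 to 374 in IELs, 404 to 491 in Naive-like and 322 to 442 in Type-1 cells, and Rag2 was below the median of all genes on every array. Of 7 markers of αβ and regulatory T cells none passed for Type-1 against Naive-like cells (3 at an unadjusted limma p under 0.05), and Cd4 and Foxp3 were below that median on every array. In IELs the checkpoint receptor gene Ctla4 rose against both other subsets, with means of 7.02 ± 0.40 in IELs, 4.38 ± 0.47 in Naive-like and 4.03 ± 0.54 (SD, n = 3) in Type-1 cells. Ikzf2, which encodes Helios, rose by 1.73 ± 0.29 against Type-1 cells. Icos fell against Type-1 cells, a call that 15 of 20 alternatives kept. The summed level of the list was 388 to 578 in IELs, 271 to 364 in Naive-like and 287 to 338 in Type-1 cells. The part of such cells in the Itgae difference was not tested.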

How the data were processed

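The authors deposited log2 expression values for 41345 array rows on 9 arrays, for which the submitters' processing notes name oligo and RMA; no version, filter or genome build is given in the sources used here. Gene symbols came from the array platform's annotation, and genes with several rows are represented by the row of highest mean. All 9 arrays entered a single limma model (limma 3.58.1, R 4.3.3; lmFit on subset means, then eBayes; two-sided, Benjamini-Hochberg adjustment over 22180 genes, threshold 0.05), with 6 residual and 6 prior degrees of freedom. The fit was tested on simulated data with known changes placed in IELs, which leaves recovery between Type-1 and Naive-like cells unmeasured. For IELs against Naive-like cells 41% of log2 changes of 1 and 90% of those of 2 were recovered. For IELs against Type-1 cells it was 34% and 93%. A gene that did not pass can thus still differ 2-fold. The number of arrays limits the precision.

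The members and lists were chosen with earlier results of these data known. Named were the pair, all partners and ligands, up to 4 called genes per list and comparison (2 of the largest where none was called), 5 neighbours on each side, genes of the same class, the 8 of most similar pattern and leading markers; additions are marked. RefSeq's GRCm38.p6 tables gave the gene order and the promoter, which matched 1 of the 2 members. Values were tabulated with Python 3.11.15 and pandas 2.3.3.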

Additional observations from a re-analysis of the deposited data

How the results depend on the processing

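In 20 alternative settings (dim genes left out, 3 scalings, other spread models, array weights, other rows, fewer samples, blocks, each array left out) the excess of Itgae in IELs over Naive-like cells kept its call, at 2.31 to 2.80 with a limma adjusted p of 7.1e-06 to 0.0037. Ccr9 did not pass in any of them, and its difference of 0.11 was -0.01 over the arrays without the date code. The differences of both genes from Type-1 cells moved by less than 1 SD between replicates. Deviations of arrays numbered 3, which share the date code, correlated at 0.23 to 0.38, and those of arrays numbered 1 or 2 at -0.01 to 0.16. Not every pair exceeded 0.1, so the numbers were not taken to pair the samples. With the replicate block Itgae differed by 2.51 and Ccr9 by 0.11 between IELs and Naive-like cells, and the genes passing numbered 1378 for IELs against Naive-like, 81 for Type-1 against Naive-like and 1405 for IELs against Type-1 cells; the block also ended the Dntt call (limma adjusted p = 0.055).

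The count of all genes passing for IELs against Naive-like cells was 1152, 1920 with array weights and 534 over the arrays without the date code. For Type-1 against Naive-like cells it was 63, 20 over those arrays and 34 (without Naive-like replicate 3) to 87 (without Type-1 replicate 3) when single arrays were left out. For IELs against Type-1 cells it was 1140, 565 over those arrays and 724 (without IEL replicate 3; 732 without IEL replicate 2) to 1308 (without Type-1 replicate 3) when single arrays were left out. Of the 119 list genes, 3 passed for Type-1 against Naive-like cells, 1 over the arrays without the date code, and 1 (without Naive-like replicate 2 or 3) to 4 (without Type-1 replicate 2) when single arrays were left out. Values of dim genes such as Ccr9 in Type-1 cells have no stated background.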
